A study of Mus musculus with 12 samples.

Results

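Creatine metabolism was followed through 7 genes in 4 organs: white adipose tissue (WAT), brown fat (BAT), liver and quadriceps muscle. They are the synthesis enzymes Gatm and Gamt, the transporter Slc6a8 and the creatine kinases Ckm, Ckb, Ckmt2 and Ckmt1. The genes were chosen by name, and each matched 1 of the 22276 gene symbols in the expression table. RNA-seq libraries came from male C57BL/6J mice aged 17 wk, with 1 library for each of the 12 combinations of 4 organs and 3 groups. The NCD-veh group ate a normal chow diet (NCD) and received vehicle (veh), a solution of hydroxypropyl cyclodextrin. The HFD-veh group ate a high-fat diet (HFD) between 8 and 17 wk of age and received vehicle, and the HFD-ncls group ate the same HFD and received narciclasine (ncls), a plant alkaloid. Vehicle or ncls was given by oral gavage every week for 7 wk from the age of 10 wk. The number of mice behind a library is not given in the sources used here. With 1 library per combination there are no replicates, so a difference between groups within an organ could not be tested, no other test was run, and every difference below is between individual libraries.

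Creatine is made in 2 steps. Gatm (glycine amidinotransferase) joins the amidino group of arginine to glycine to give guanidinoacetate, and Gamt (guanidinoacetate N-methyltransferase) methylates that product, in liver above all. Creatine then travels in the blood and enters cells through Slc6a8, a sodium- and chloride-dependent carrier. Creatine kinases move phosphate reversibly between ATP and creatine. Ckm is the cytosolic muscle isozyme, Ckb the cytosolic brain-type isozyme, Ckmt2 the sarcomeric mitochondrial isozyme of striated muscle, and Ckmt1 the ubiquitous mitochondrial isozyme. Creatine is known as an energy buffer in muscle and, in thermogenic fat, as a substrate of cycling that uses up ATP.

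Levels are in FPKM, fragments scaled to the length of the transcript and to all mapped fragments of the library, so levels of different genes can be set side by side per length. The 12 libraries held 9130 to 12052 genes at 1 FPKM or more. Each organ's label was matched by its defining genes: Ucp1 was at 740 to 770 FPKM in BAT and at most 3.92 in the other organs, Adipoq reached 1600 to 2849 FPKM in WAT, and Acta1 was at 22749 to 24220 FPKM in muscle. The table has no value for Alb in liver, where Apoa2 stood at 15430 to 16882 FPKM. Transcripts of other organs stood out in several libraries. Fast-twitch muscle genes were present in all 3 BAT libraries, in HFD-veh liver and, at a lower median share of their muscle level, in WAT. Liver genes were present in HFD-veh muscle and in both HFD libraries of WAT. The values of these lists are given beside each result they touch. In bulk tissue, fewer cells of a type and less RNA per cell cannot be told apart.

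In the mm9 build the genes lie on 6 chromosomes, all as protein-coding genes. Gatm is at chr2:122420203-122437039 (minus strand), Ckmt1 at chr2:121183450-121189473 (plus), Gamt at chr10:79720896-79723757 (minus), Slc6a8 at chrX:70918489-70927841 (plus), Ckm at chr7:19996443-20006932 (plus), Ckb at chr12:112907566-112910549 (minus) and Ckmt2 at chr13:91992992-92016490 (minus). Exons of Ckm overlap A930016O22Rik on the opposite strand, which was at 4.35 to 8.00 FPKM in muscle and at most 0.170 FPKM elsewhere. Exons of Ckmt1 overlap Strc, at 0 to 0.0315 FPKM. Exons of Ckmt2 overlap 1700119I11Rik, which the table does not list. Whether the libraries kept the strand is not stated. The kinase transcripts share only short identical runs, 39 bases at most between Ckmt1 and Ckmt2 and 20 between Ckm and Ckb.

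The 250 bases upstream of the RefSeq start are shown for 4 genes whose levels divide the organs: Ckm and Ckmt2, highest in muscle, Ckb, highest in fat, and Gamt, highest in liver. They are read 5′ to 3′ in the direction of the gene, from RefSeq on GRCm38.p6, at chr7:19410844-19411093 (Ckm, plus strand), chr13:91876886-91877135 (Ckmt2, minus), chr12:111672339-111672588 (Ckb, minus) and chr10:80261013-80261262 (Gamt, minus). Capitals mark matches, on either strand, to the E-box CANNTG, to TATAAA and to the GC box GGGCGG.
Ckm: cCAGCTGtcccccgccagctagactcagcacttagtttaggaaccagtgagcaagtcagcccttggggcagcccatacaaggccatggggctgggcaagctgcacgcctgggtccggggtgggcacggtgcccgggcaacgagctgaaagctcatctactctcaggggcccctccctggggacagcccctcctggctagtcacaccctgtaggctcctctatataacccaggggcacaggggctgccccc
Ckmt2: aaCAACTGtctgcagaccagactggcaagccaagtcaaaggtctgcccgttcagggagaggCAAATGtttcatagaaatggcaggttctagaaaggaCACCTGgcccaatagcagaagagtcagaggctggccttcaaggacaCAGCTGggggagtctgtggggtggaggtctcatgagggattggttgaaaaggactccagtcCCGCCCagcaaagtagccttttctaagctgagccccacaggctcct
Ckb: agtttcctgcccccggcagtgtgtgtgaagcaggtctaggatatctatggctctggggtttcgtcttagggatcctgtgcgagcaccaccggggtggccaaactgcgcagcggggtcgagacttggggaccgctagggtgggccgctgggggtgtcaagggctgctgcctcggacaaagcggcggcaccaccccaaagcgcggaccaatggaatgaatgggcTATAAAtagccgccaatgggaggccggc
Gamt: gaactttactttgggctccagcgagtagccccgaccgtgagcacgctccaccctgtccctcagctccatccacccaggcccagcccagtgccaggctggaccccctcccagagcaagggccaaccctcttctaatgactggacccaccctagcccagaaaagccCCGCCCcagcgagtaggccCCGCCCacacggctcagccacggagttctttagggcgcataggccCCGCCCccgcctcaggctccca

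Within the window of 300 bases that also takes in the first 50 of the transcript, Ckmt2 held 4 E-box matches and Ckm held 1, the median over 32851 mouse promoters. Ckb held no E-box match and the only TATAAA of the 4 genes. Gamt held 4 GC boxes and 1 E-box, with 1 of each beyond the letters shown. An E-box is found in 72.3% of all promoters of this length, TATAAA in 13.6%, GGGCGG in 35.7% and the CArG box, which none of the 4 windows held, in 1.63%. These matches describe letters in a window and show no binding. RefSeq promoter entries were found for 6 of the 7 genes, all but Slc6a8.

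**Figure D1:**
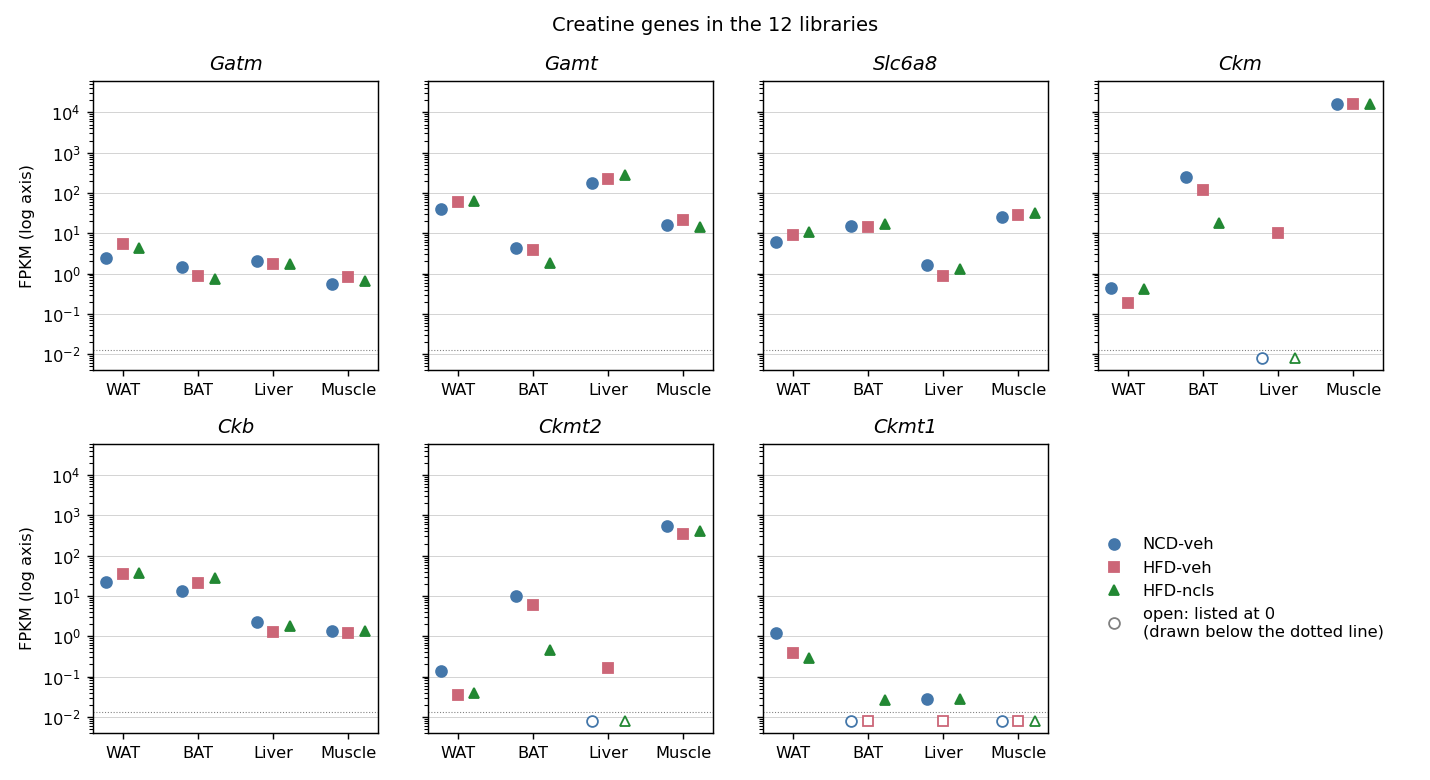
FPKM of each gene (log axis) in WAT, BAT, liver and muscle, 1 point per library, with circles for NCD-veh, squares for HFD-veh and triangles for HFD-ncls. Open symbols under the dotted line are libraries where the gene is listed at 0. Ckm and Ckmt2 are highest in muscle and spread widely in BAT, whereas Gamt keeps the order liver, WAT, muscle, BAT.

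Of the synthesis enzymes, Gamt was high in liver and Gatm was low in all 4 organs. Gamt stood at 180, 217 and 284 FPKM in NCD-veh, HFD-veh and then HFD-ncls liver. In WAT, in the same order of groups, it was at 39.6, 61.3 and 62.9 FPKM, in muscle at 15.7, 21.8 and 14.2 FPKM, and in BAT at 4.21, 3.81 and 1.88 FPKM. The ranges of the 4 organs did not overlap for Gamt. Gatm, the enzyme of the first step, was highest in WAT, at 2.48, 5.40 and 4.37 FPKM. In liver Gatm was at 2.09, 1.72 and 1.69 FPKM, in BAT at 1.42, 0.867 and 0.749 FPKM, and in muscle at 0.547, 0.846 and 0.661 FPKM. The WAT and liver ranges of Gatm stood apart, whereas those of BAT and muscle overlapped. The level of Gamt was thus 86.4, 126 and 168 times that of Gatm in liver. In BAT the ratio was 2.98, 4.39 and 2.51. WAT and muscle lay between, with ratios of 11.4 to 16.0 and 21.5 to 28.6.

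Slc6a8 had an order of its own, muscle over BAT over WAT over liver, with no overlap between neighbours. It was at 26.0, 29.1 and 32.1 FPKM in NCD-veh, HFD-veh and then HFD-ncls muscle, and at 15.2, 14.7 and 16.5 FPKM in BAT. WAT held 6.18, 8.94 and 10.6 FPKM. In liver it was at 1.63, 0.879 and 1.30 FPKM. The organ with the most Gamt thus held the least of the transporter.

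The kinases divided muscle from fat. Ckm was at 16456, 16147 and 15744 FPKM in NCD-veh, HFD-veh and then HFD-ncls muscle, where it ranked 2, 3 and 3 among all genes by FPKM. In BAT it was at 248, 120 and 17.7 FPKM, a spread far wider than in muscle. In liver Ckm reached 10.3 FPKM with HFD-veh and was listed at 0 in the other 2 libraries, and in WAT it was at 0.433, 0.186 and 0.409 FPKM. Ckmt2 went with it: 546, 343 and 408 FPKM in muscle and 9.76, 5.85 and 0.458 FPKM in BAT. In WAT it did not exceed 0.137 FPKM, and in HFD-veh liver it reached 0.159 FPKM, with 0 listed for the other 2 liver libraries.

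Ckb was the fat isozyme, at 22.0, 35.3 and 37.0 FPKM in WAT and 13.4, 21.5 and 27.7 FPKM in BAT. The ranges of the 2 fat depots overlapped, but WAT exceeded BAT within each of the 3 groups. Liver, at 2.31, 1.26 and 1.81 FPKM, and muscle, at 1.33, 1.21 and 1.38 FPKM, overlapped at a far lower level of Ckb. Ckmt1 was scarce everywhere: 1.20, 0.390 and 0.286 FPKM in WAT, at most 0.0282 FPKM in BAT and liver, and listed at 0 in all 3 muscle libraries. For 6 of the 7 genes, all but Ckb, the highest organ overlapped no other organ. Of 13648 genes, 75.2% shared that property, so it does not set the creatine genes apart. The 3 libraries of an organ differ in diet and drug and are not replicates.

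**Figure D2:**
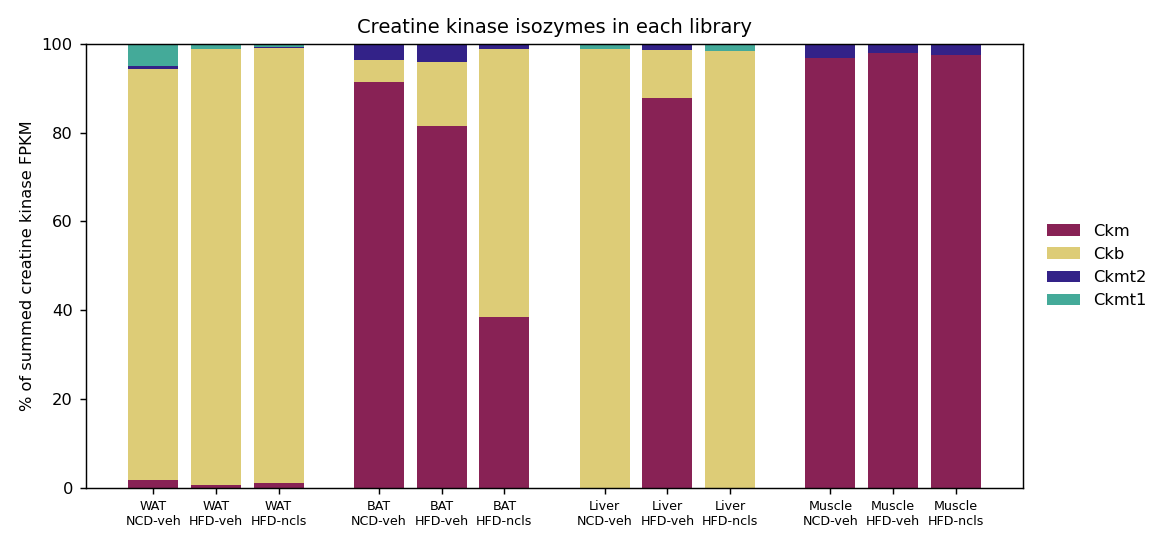
Share of each creatine kinase gene in the summed kinase FPKM of each of the 12 libraries (stacked bars, in %). Ckm fills 96.8% to 97.9% of the muscle bars and Ckb 92.5% to 98.3% of the WAT bars, whereas the BAT bars pass from 91.4% Ckm in NCD-veh to 60.4% Ckb in HFD-ncls. No muscle RNA is subtracted.

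As a share of the summed FPKM of the 4 kinase genes, muscle was Ckm with a little Ckmt2 in every group. Ckm made up 96.8%, 97.9% and 97.5% in NCD-veh, HFD-veh and then HFD-ncls muscle and Ckmt2 made up 3.21%, 2.08% and 2.52%. Ckb made up 0.00856% there at most. WAT was Ckb: 92.5%, 98.3% and 98.1%, with Ckmt1 at 5.06%, 1.09% and 0.757%. Mitochondrial isozymes together thus made up 5.63% of kinase FPKM in NCD-veh WAT, and in HFD-veh and HFD-ncls WAT 1.19% and 0.859%.

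The BAT libraries differed in composition. Ckm made up 91.4% with NCD-veh, 81.5% with HFD-veh and 38.6% with HFD-ncls, while Ckb made up 4.95%, 14.6% and 60.4%. The summed kinase FPKM of BAT was 271, 147 and 45.8 in the same order. In liver the sum was 2.34, 11.8 and 1.84 FPKM. Ckb made up 98.8% and 98.5% of it in NCD-veh and HFD-ncls, and Ckm made up 87.9% in HFD-veh liver. Fast-twitch muscle genes were also present in the BAT libraries and in HFD-veh liver, and Ckm is set beside them below.

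**Figure D3:**
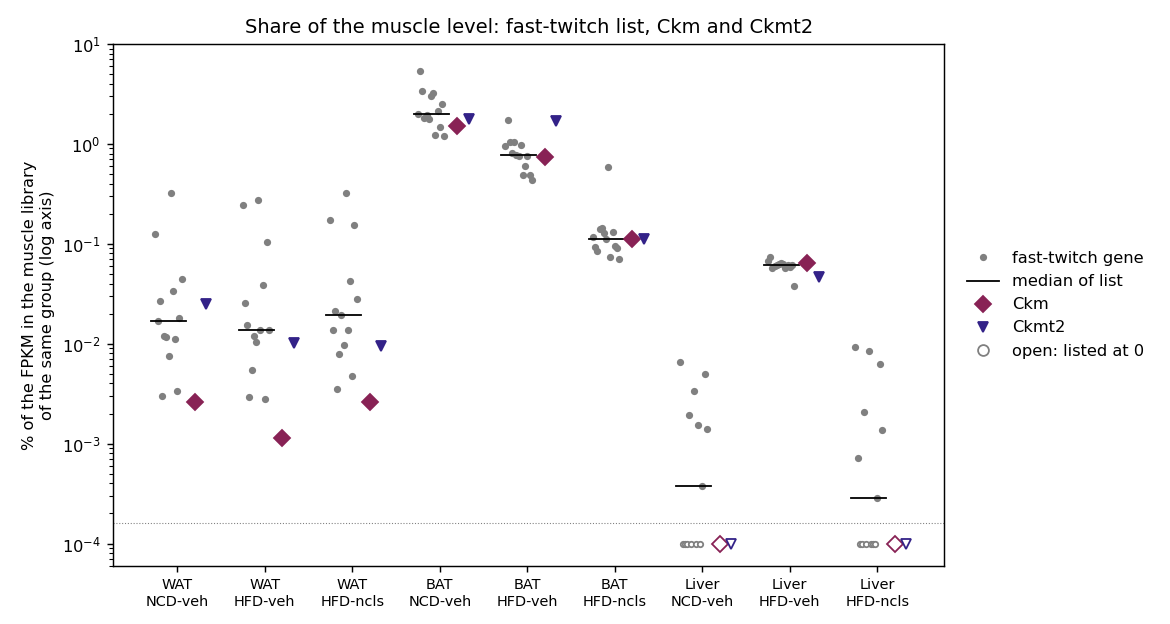
FPKM in each WAT, BAT and liver library as a percentage of the FPKM in the muscle library of the same group (log axis). Grey points are 13 fast-twitch muscle genes with their median as a bar, diamonds are Ckm and triangles Ckmt2, and open symbols are listed at 0. Ckm sits among the fast-twitch genes in BAT and in HFD-veh liver and under all of them in WAT, and Ckmt2 sits near the top of the list in HFD-veh BAT.

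Ckm in BAT and liver was set beside other genes of fast-twitch muscle, to measure how much muscle RNA these libraries held. The study's methods state that connective and surrounding tissue was removed before RNA was extracted. A list of 14 fast-twitch genes was used, of which 13 had values in every library (Myh4 had none in muscle). In NCD-veh BAT, these 13 genes stood at 1.19% to 5.32% of their level in NCD-veh muscle, with a median of 1.97%, and Ckm at 1.504%. In HFD-veh BAT the median was 0.779% (0.439% to 1.72%) and Ckm was at 0.744%. In HFD-ncls BAT the median was 0.111% (0.0706% to 0.586%) and Ckm was at 0.112%. Ckm was therefore within the range of the list in all 3 BAT libraries, and was lower, as the list was, from NCD-veh to HFD-veh to HFD-ncls. All 14 fast-twitch genes were lower in HFD-veh than in NCD-veh BAT, 11 of them over 2-fold, and all 14 were lower again in HFD-ncls, 13 over 2-fold. Their summed FPKM in BAT was 2420, 953 and 174. The defining genes of muscle were not at 0 in any BAT library: Acta1 was at 478, 217 and 26.8 FPKM. The part of muscle RNA in the Ckm level of BAT and liver was not tested beyond these shares.

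The same held for the single liver library with Ckm. In HFD-veh liver the 13 genes stood at 0.0378% to 0.0746% of muscle with a median of 0.0610%, and Ckm stood at 0.0640%. In the other 2 liver libraries, where Ckm was listed at 0, 6 of the 13 genes were listed at 0 too. The 14 genes summed to 73.3 FPKM in HFD-veh liver, 2.29 in NCD-veh and 3.29 in HFD-ncls. WAT differed: the medians were 0.0170%, 0.0139% and 0.0195% and Ckm was at 0.0026%, 0.0012% and 0.0026%, below all 13 genes in each library. The 14 genes summed to 71.8, 95.3 and 82.5 FPKM in WAT and none was listed at 0. Acta1 was at 30.7, 55.2 and 40.2 FPKM there and Myl1 at 33.4, 28.3 and 28.7 FPKM.

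At the median share of the list, Ckm would stand at 325, 126 and 17.5 FPKM in NCD-veh, HFD-veh and then HFD-ncls BAT and at 9.85 FPKM in HFD-veh liver. The measured levels exceeded these by 0.160 FPKM in HFD-ncls BAT and by 0.488 FPKM in HFD-veh liver and were lower in the other 2 BAT libraries. With that share subtracted and values below 0 set to 0, Ckb made up 100%, 87.1% and 99.3% of the kinase FPKM of BAT. The subtraction removes by construction a gene that follows the list, as Ckm did. These percentages therefore cannot show the kinase composition of BAT without muscle RNA. Ckb itself hardly moved with this subtraction, since its level in muscle times the list share came to 0.0262 FPKM at most in BAT.

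Ckmt2 also stayed within the range of the list in all 3 BAT libraries and stood near its top in 1 of them. In HFD-veh BAT it stood at 1.71% of its muscle level, above 12 of the 13 fast-twitch genes, all but Myh1. In NCD-veh BAT it was at 1.79%, above 4 of 13, and in HFD-ncls BAT at 0.112%, above 7 of 13. With the mean of the 3 muscle libraries as the source, Ckmt2 in HFD-veh BAT was at 1.35%, again above 12 of 13. In NCD-veh BAT it was then at 2.26%, above 8 of 13. Of the sum of Ckm and Ckmt2, Ckmt2 made up 3.79%, 4.65% and 2.52% in NCD-veh, HFD-veh and then HFD-ncls BAT and 3.21%, 2.08% and 2.52% in muscle. Slow-twitch muscle genes were read beside it. The 6 slow genes were Tnnt1, Tnni1, Tnnc1, Myl2, Myl3 and Myh7. The study names them as slow-fiber markers found among the genes higher with ncls in these same muscle libraries. They summed to 24.0, 29.6 and 3.09 FPKM in BAT and to 44.4, 6.94 and 47.5 FPKM in muscle. In BAT, Tnnc1, Myl2, Myl3 and Myh7 were higher in HFD-veh than in NCD-veh, whereas Tnni1 was at 4.64 and 3.98 FPKM and Tnnt1 at 2.21 and 0.000263 FPKM. Ckmt2, like the fast-twitch sum, was lower in HFD-veh than in NCD-veh BAT, and the part of these genes in the level of Ckmt2 was not tested.

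**Figure D4:**
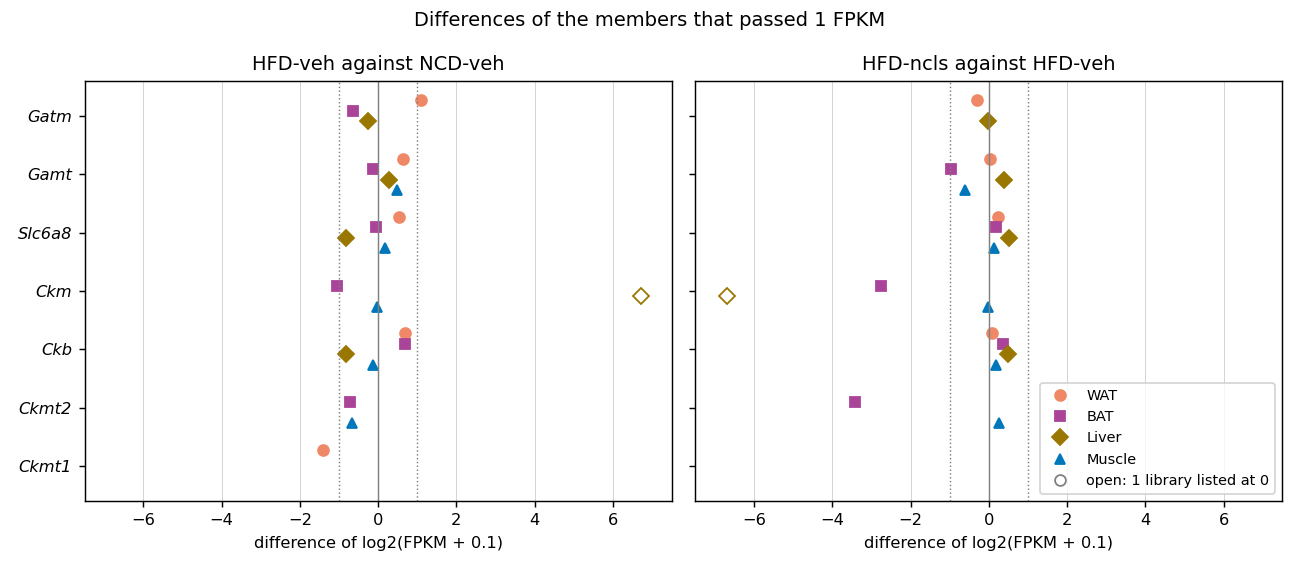
Difference of log2(FPKM + 0.1) for HFD-veh against NCD-veh (left) and HFD-ncls against HFD-veh (right), for each gene and organ with at least 1 FPKM in 1 of the libraries compared. Dotted lines mark 2-fold and open symbols have 1 library listed at 0. Past 2-fold on the right stand Ckm and Ckmt2 in BAT and Ckm in liver, all to the left of 0.

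To compare groups within an organ, differences were taken on log2(FPKM + 0.1), a scale that understates the change of low genes. Genes below 1 FPKM in both libraries compared were left out. The diet comparison (HFD-veh against NCD-veh) and the ncls comparison (HFD-ncls against HFD-veh) share the HFD-veh library of each organ. A high value there shows up as higher with diet and lower with ncls.

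In WAT, 5 of the 7 genes reached 1 FPKM in the diet comparison, all but Ckm and Ckmt2. Gatm was 2.18-fold higher in HFD-veh (log2 difference 1.09) and Ckmt1 was lower (−1.41). These 2 of 5 passed 2-fold, as did 9.11% of all genes tested. Gamt (0.63), Ckb (0.68) and Slc6a8 (0.52) were higher by less, so that all 5 passed 1.4-fold, which 29.3% of all genes did. With a pseudocount of 1 FPKM neither Gatm nor Ckmt1 passed 2-fold. Ckmt1 entered this comparison only through NCD-veh WAT, at 1.20 FPKM beside 0.390 in HFD-veh, so it could only come out lower. With a minimum of 5 FPKM, Gatm alone passed 2-fold. The median difference of the 5 genes tested was 0.63, against 0.03 over all genes. With ncls, none of the 4 genes tested in WAT passed 2-fold, beside 1.70% of all genes, and none passed 1.4-fold, beside 7.68%. Gatm was at −0.30, Slc6a8 at 0.24, Ckb at 0.07 and Gamt at 0.04 on the log2 scale, so HFD-ncls WAT stayed near HFD-veh for all 4.

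Other cell types moved in WAT with the diet. All 5 macrophage markers were higher in HFD-veh than in NCD-veh WAT, 2 of them over 2-fold, with a median log2 difference of 0.63. The macrophage marker Cd68 was at 49.5, 198 and 222 FPKM, and the 5 summed to 578, 815 and 1040 FPKM in NCD-veh, HFD-veh and then HFD-ncls. The 6 adipocyte markers summed to 26378, 18599 and 17006 FPKM, with 2 higher and 4 lower with diet. Cfd was at 8163, 653 and 753 FPKM, Adipoq at 2849, 1692 and 1600 FPKM, and Lep, the leptin gene, at 300.2, 1199 and 1062 FPKM. Exocrine pancreas, a tissue rich in Gatm, was represented by Cela1, at 5.58, 27.1 and 22.3 FPKM in WAT, while Amy2b was at 1.96, 0.771 and 0.989 FPKM, Prss2 was listed at 0 in all 3 libraries and Pnlip in 2 of them. Epididymis markers were listed at 0 in WAT, 4 of 4 genes in every library. Liver genes stood at a median of 0.00256%, 0.0721% and 0.238% of their liver level in WAT. The liver marker Cyp2e1 went the other way with diet, at 28.0%, 9.17% and 11.3%. At the median shares of the liver level, Gamt would come to 0.00462, 0.157 and 0.675 FPKM. The part of these cell types and of liver RNA in the levels of Gatm, Gamt, Slc6a8 and Ckb was not tested.

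In BAT, 6 of the 7 genes were tested with diet and 1 passed 2-fold, Ckm at −1.04, where 4.29% of all genes did. At 1.4-fold 4 of 6 passed, beside 17.6% of all genes: Ckb was 1.60-fold higher (0.68), whereas Ckmt2 (−0.73), Gatm (−0.65) and Ckm were lower. Gatm reached 1 FPKM only in NCD-veh BAT, so it could only come out lower. Slc6a8 (−0.05) and Gamt (−0.14) were close in both libraries. With ncls, 2 of 5 genes passed 2-fold, beside 1.96% of all genes. Ckm was at −2.76 and Ckmt2 at −3.42, the 2 genes set beside the muscle list above. Of the libraries compared with ncls, Ckmt2 reached 1 FPKM only in HFD-veh BAT, so it could only come out lower. Gatm and Ckmt1 stayed below 1 FPKM in both libraries. Gamt, at −0.98, was the third gene past 1.4-fold, which 8.53% of all genes passed. It was at 3.81 and 1.88 FPKM in HFD-veh and HFD-ncls BAT, and with a pseudocount of 0.01 FPKM it passed 2-fold too. Ckb was at 0.36 and Slc6a8 at 0.17. Ckb was thus higher in HFD-veh than in NCD-veh BAT and higher again in HFD-ncls, while Ckm was lower at each step. After rescaling to the median gene Ckm no longer passed 2-fold with diet. With the muscle share subtracted and values below 0 set to 0, the sign changed for Ckmt2 with diet (5.03) and Ckm with ncls (1.38). Ckmt2 was then left at 0 in NCD-veh and 3.18 FPKM in HFD-veh BAT. Ckm was left at 0 in HFD-veh and 0.160 FPKM in HFD-ncls BAT, below the minimum of 1 FPKM. Both values depend on the pseudocount and show no reversal. The median difference of the genes tested was −0.40 with diet and −0.98 with ncls, against −0.04 and −0.02 over all genes.

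Markers of other cell types were read beside Ckb in BAT. The 5 nerve markers, of a tissue known for Ckb, summed to 22.6, 10.8 and 10.1 FPKM in NCD-veh, HFD-veh and then HFD-ncls BAT, with Snap25 listed at 0 in all 3. The 5 macrophage markers summed to 36.0, 52.0 and 31.6 FPKM. The 7 brown fat markers summed to 8226, 9127 and 10119 FPKM, the order of Ckb. Most of that sum was Cox8b (4380, 5142 and 5863 FPKM) and Cox7a1 (1546, 2085 and 2239 FPKM), subunits of cytochrome oxidase. Ucp1 was at 770, 768 and 740 FPKM, Cidea at 1509, 1121 and 1269 FPKM and Elovl3 at 18.6, 7.39 and 6.52 FPKM. Of the markers tested, 3 of 6 were higher and 3 lower with diet. The part of these cell types in the level of Ckb was not tested.

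In liver, 1 of 5 genes passed 2-fold with diet, beside 5.12% of all genes, and 1 of 5 with ncls, beside 2.31%. Both times this was Ckm, whose single nonzero library was HFD-veh liver, and no fold is given against 0. Ckmt2 and Ckmt1 did not reach 1 FPKM in any liver library. At 1.4-fold 3 of 5 passed with diet, beside 23.8% of all genes, and 3 of 5 with ncls, beside 14.9%. Slc6a8 was below 1 FPKM in HFD-veh liver, so it could only come out lower with diet and higher with ncls. Ckm reached 1 FPKM only in HFD-veh liver, so its directions were fixed as well. Slc6a8 and Ckb were each lower in HFD-veh than in NCD-veh (−0.82 for both) and went the other way between HFD-veh and HFD-ncls (0.52 and 0.49). Both stayed under their NCD-veh level in HFD-ncls. Gamt, the main creatine gene of liver, was 1.21-fold higher in HFD-veh (0.27) and 1.30-fold higher again in HFD-ncls (0.38). Gatm was at −0.26 and −0.03. The median of the genes tested was −0.26 with diet and 0.38 with ncls, against 0.04 and 0.02 over all genes.

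In muscle, none of the 5 genes tested passed 2-fold with diet, beside 4.11% of all genes, nor with ncls, beside 3.80%. Ckm was at −0.03 and −0.04 and Slc6a8 at 0.16 and 0.14, and Ckb also stayed within 1.4-fold. Gatm and Ckmt1 were below 1 FPKM and were not compared. Ckmt2 was the 1 gene of 5 past 1.4-fold with diet, at −0.67, where 13.3% of all genes passed. With ncls it was higher by 0.25, back to 408 of the 546 FPKM in NCD-veh muscle. Gamt was the 1 gene of 5 past 1.4-fold with ncls, at −0.61, where 13.9% of all genes passed. With diet it had been higher by 0.47. The median of the genes tested was −0.03 with diet and 0.14 with ncls, against 0.03 and 0.04 over all genes.

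Markers of fiber type and of liver moved beside these muscle values. All 6 slow-twitch genes were over 2-fold lower in HFD-veh than in NCD-veh muscle and over 2-fold higher in the HFD-ncls library, with medians of −3.68 and 3.77. The study picked these genes from those that differed this way in these same muscle libraries, so the outcome was fixed in advance. Apart from these libraries, the study also reports qRT-PCR of these genes and staining of fiber types in quadriceps. In HFD-veh muscle all but Myh7 were under 1 FPKM. Ckmt2 had the direction of these genes in both comparisons and a far smaller size. None of the 13 fast-twitch genes with values passed 2-fold in muscle. Liver genes, of a list of 12 of which 11 had values in liver, stood at a median of 0.665% of their liver level in HFD-veh muscle, and at 0.00272% and 0.000665% in NCD-veh and HFD-ncls muscle. At 0.665% of its liver level, Gamt would come to 1.45 FPKM, beside the 21.8 FPKM of HFD-veh muscle. The part of liver RNA and of fiber type in the levels of Gamt and Ckmt2 was not tested.

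Around the 7 genes, 17 others of arginine, glycine and methyl supply and of ATP exchange were followed. In liver none of the 14 tested passed 2-fold with diet or with ncls, beside 5.12% and 2.31% of all genes. Genes of the methyl and arginine supply were abundant there: Gnmt, which methylates glycine and competes for the same methyl donor as Gamt, at 1755, 1431 and 1825 FPKM, Mat1a, which makes that donor S-adenosylmethionine in liver, at 1168, 1029 and 920 FPKM, and Arg1, which splits arginine, at 818, 788 and 883 FPKM. In muscle 6 of 16 passed 2-fold upward with diet, where 4.11% of all genes passed 2-fold, and the same 6 downward with ncls, where 3.80% did: Ass1, Asl, Arg1, Mat1a, Gnmt and Pemt. Of these, Ass1, Arg1, Mat1a and Gnmt reached 1 FPKM only in HFD-veh muscle. They could thus only come out higher with diet and lower with ncls. Mat1a was at 0.0224, 6.66 and 0 FPKM and Arg1 at 0.0578, 5.92 and 0.0559 FPKM in NCD-veh, HFD-veh and then HFD-ncls muscle. The liver list was present in that HFD-veh library. All 12 liver markers likewise were over 2-fold higher with diet and over 2-fold lower with ncls in muscle.

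In WAT 1 of 14 pathway genes passed 2-fold with diet, Ass1, an enzyme of arginine synthesis, at 1.03 FPKM in NCD-veh and 5.43 in HFD-veh, a share near the 9.11% of all genes. Of the liver markers tested there, 9 of 10 were over 2-fold higher and 1, Cyp2e1, was over 2-fold lower, at 1053 and 438 FPKM in NCD-veh and HFD-veh. With ncls 3 of 16 passed, Arg1, Mat1a and Gnmt, all higher, beside 1.70% of all genes, and 10 of the 12 liver markers were over 2-fold higher as well. Mat1a and Gnmt reached 1 FPKM only in HFD-ncls WAT, so they could only come out higher. In BAT 2 of 14 passed with diet, both lower, Gnmt and the muscle AMP deaminase Ampd1, and 1 of 14 with ncls, Ampd1, beside 4.29% and 1.96% of all genes. Gnmt passed the minimum of 1 FPKM with diet only through NCD-veh, and Ampd1 with ncls only through HFD-veh. Each could thus only come out lower there. Ampd1 was at 6.28, 1.87 and 0.274 FPKM in BAT and at 446, 576 and 420 FPKM in muscle, and so was lower in BAT in the order of the fast-twitch list. The partners of mitochondrial creatine kinase in ATP export differed by less than 1.4-fold in muscle and BAT. Slc25a4, the ADP/ATP carrier of muscle, was at 2181, 1958 and 2000 FPKM in muscle and at 241, 240 and 192 FPKM in BAT. Vdac1, the channel of the outer membrane, was at 523, 558 and 539 FPKM in muscle. Alpl, an alkaline phosphatase described as a phosphocreatine phosphatase of thermogenic fat, was at 6.93, 6.49 and 7.23 FPKM in BAT.

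For each gene, the 3 genes of most similar pattern were found by Pearson's r of log2(FPKM + 0.1) over the 12 libraries, among 7485 genes with at least 10 FPKM in at least 1 library. These r values describe differences between organs above all, and the libraries of an organ share that organ. Ckm went with the fast-twitch genes Tnnt3 and Atp2a1 (r = 0.999 for both) and Tnni2 (r = 0.997). Ckmt2 went with Myh2, the myosin of fast oxidative fibers, and with Myot (r = 0.998 for both) and Hrc (r = 0.997). Ckb went with Mllt4 (r = 0.989), Kctd12 and the natriuretic peptide receptor gene Npr1 (r = 0.988 for both). Npr1 was at a median of 18.7 FPKM in WAT and 14.3 FPKM in BAT. Slc6a8 went with Maf1 (r = 0.989), Coro6 and the glycolytic gene Pkm (r = 0.986 for both). Gamt went with Snap47 (r = 0.981), Rnf103 (r = 0.979) and Sec24a (r = 0.978), and Gatm with Sec22b (r = 0.982), Lacc1 (r = 0.977) and Slc39a7 (r = 0.973). For Ckmt1, under 1 FPKM in all libraries but 1, the values were lowest: Plagl1 (r = 0.968), Poglut1 (r = 0.966) and Phf17 (r = 0.965).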

How the data were processed

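Total RNA of 4 organs was sequenced in 12 libraries. The authors used TopHat for alignment to mm9 and Cufflinks for RefSeq genes, and the deposited values are FPKM, 1 per gene symbol and library. Read counts and depth per library are not given in the sources used here, so no counting interval is given. The number of libraries limits the precision. A gene listed at 0 may be a failed estimate. Of 22276 symbols, 86 lacked a value somewhere.

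Computations used Python 3.11.15, numpy 2.4.6, pandas 2.3.3 and matplotlib 3.10.9. Differences used a pseudocount of 0.1 FPKM and genes with at least 1 FPKM in 1 of the 2 libraries. The p-value criteria of the study could not be applied without replicates. Organ shares were medians over fast-twitch or liver lists. Genes named were the 7 chosen, list genes over 2-fold apart or at 100 FPKM or more, organ-defining genes, genes with overlapping exons and genes of like pattern. Some marker genes (Prss2, Pnlip, Snap25) were named after their values were seen. The members and lists were chosen with earlier results of these data known. Scripts were tested on simulated data. Gene positions came from GENCODE vM1 and promoters from RefSeq.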

Additional observations from a re-analysis of the deposited data

Results flagged for a closer look

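With the diet, 4 of the 6 creatine genes compared in at least 2 organs differed in opposite directions in different organs, each by over 1.4-fold. Of all 11227 genes compared in at least 2 organs, 8.42% did so. A gene compared in more organs has more chances to do so, and that share was not matched on the number of organs. Gatm was higher in HFD-veh than in NCD-veh WAT (log2 difference 1.09) and lower in BAT (−0.65). Slc6a8 was higher in WAT (0.52) and lower in liver (−0.82). Ckb was higher in WAT (0.68) and in BAT (0.68) and lower in liver (−0.82). The lower values of these genes lay near the minimum of 1 FPKM. In NCD-veh and HFD-veh, Gatm in BAT was at 1.42 and 0.867 FPKM and Slc6a8 in liver at 1.63 and 0.879 FPKM. Both reached the minimum only in NCD-veh, so there they could only come out lower. Ckb in liver was at 2.31 and 1.26 FPKM. Ckm was lower in BAT (−1.04) and higher in liver, where the value of 6.71 against a library listed at 0 depends on the pseudocount. In liver Ckm reached the minimum only in HFD-veh, so it could only come out higher. With 1 library per organ and group, none of these differences between organs was tested. The Ckm values go with fast-twitch muscle genes, which were lower in HFD-veh BAT and higher in HFD-veh liver. Between HFD-ncls and HFD-veh, none of the 6 did, beside 4.24% of all genes.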

How the results depend on the processing

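Of 180 differences recomputed under the alternatives, 168 kept their fold within 1.5 times, and 3 changed sign. With the muscle share subtracted, Ckm in BAT with ncls went from −2.76 to 1.38 (log2) and Ckmt2 in BAT with diet from −0.73 to 5.03. Values below 0 were set to 0 in that step. Each of these 2 differences is against a library set to 0, so its size depends on the pseudocount. With rescaling to the median gene, Gamt in WAT with ncls went from 0.04 to −0.01. Counts of genes kept within 1.5 times in 47 of 61 recomputations. All were counts past 2-fold except the count of genes whose highest organ overlaps no other, which stayed at 6 of 7. In WAT with diet the count past 2-fold was 2, 0 with a pseudocount of 1 FPKM, 1 (Gatm) with a minimum of 5 FPKM and 5 at 1.4-fold. In BAT with diet it was 1, 0 after rescaling to the median gene and 4 at 1.4-fold, and with the muscle share subtracted the 1 gene was Ckmt2, higher, in place of Ckm, lower. In BAT with ncls it was 2, and 1 (Ckmt2) with the muscle share subtracted. It was 3 (Gamt, Ckm and Ckmt2) with a pseudocount of 0.01 FPKM and also at 1.4-fold. In liver, with diet and with ncls alike, it was 1, 2 (Ckm and Ckmt2) without a filter, 3 at 1.4-fold and 0 with the muscle share subtracted. In muscle it was 0, and 1 at 1.4-fold with diet (Ckmt2) and with ncls (Gamt). With the muscle share subtracted, the Ckm percentage of kinase FPKM was 0 in the 3 WAT libraries and in NCD-veh and HFD-veh BAT, 0.575 in HFD-ncls BAT and 27.9 in HFD-veh liver. That subtraction acts on Ckm and Ckmt2 by construction, and the cause of the other moves was not tested. Median shares of the fast-twitch list stayed within 1.5 times with the mean muscle level as source, and subtracting the liver share moved no value by more. Without replicates or depths, the limit of these values is the single library behind each.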
